A study of Homo sapiens with 6 samples.

Results

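The docetaxel-resistant prostate cancer line TaxR was compared with C4-2B, the line it was selected from, across the transcriptome. Genes entered the comparison when they reached 1 FPKM (a fragment count scaled by transcript length and library size) in either library, which 14442 of the 60658 listed identifiers did, and 11813 of these are protein-coding. A gene was called higher or lower when its log2 ratio of (FPKM + 1), TaxR to C4-2B, was at least 1 or at most -1. On that scale the change of a gene with low FPKM is understated.

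The series holds 6 human prostate cancer lines with 1 library each. C4-2B belongs to the LNCaP family and grows after castration, and TaxR was kept under 5 nM docetaxel. CabR was derived from TaxR and kept under 5 nM cabazitaxel. DU145, the docetaxel-resistant DTXR made from it and the cabazitaxel-resistant CTXR made from DTXR form a separate lineage. All 6 lines grew in serum-containing RPMI medium, and the labels describe the cells as untreated when they were harvested. The labels do not say whether TaxR is a single clone or how long it was off the drug, and the title of its sample carries the unexplained word "old". No value below has a replicate check, so differences are described by size, without p-values. In such bulk samples fewer cells of a kind and less RNA per cell cannot be told apart.

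Taxanes bind the beta-tubulin of microtubules and stabilise them, which arrests dividing cells in mitosis. P-glycoprotein, the product of ABCB1, pumps taxanes and many other compounds out of cells. Other programmes met here are the hypoxia-inducible factors, which switch on glycolytic and angiogenic genes when oxygen is low, and ATF4, a transcription factor made when amino acids run short or proteins misfold. Metallothioneins are small cysteine-rich proteins that bind zinc and copper and are induced by metals through the transcription factor MTF1.

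Total FPKM was 711766 in C4-2B and 794170 in TaxR, within a range that reached 818430 over the 6 libraries, and 13760 and 13418 genes reached 1 FPKM. Mitochondrial genes held 17.9% of the total in C4-2B and 27.9% in TaxR. The files used here hold no read counts, and sequencing depth is unknown. The libraries carried the markers of their labelled line. Summed over 14 luminal prostate markers, FPKM came to 5594 for C4-2B, 4716 for TaxR, 2721 for CabR and 14.1 for DU145. Markers of other cell types were low, with 9 fibroblast markers summing to 13.7 FPKM in C4-2B and 10.5 in TaxR, 10 blood markers to 7.92 and 4.34, and 7 endothelial markers to 2.06 and 0.942. PTPRC, CSF1R and HBA1 of the blood list, FAP and LUM of the fibroblast list and ERG of the endothelial list were listed at 0 in both.

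TaxR also held low levels of transcripts that are abundant in the DU145 lineage and nearly absent from its own relatives. A set of 24 genes was under 0.1 FPKM in C4-2B and CabR and at 20 FPKM or more in DU145, DTXR and CTXR. None of the 24 was listed at 0 in TaxR, and 4 reached 1 FPKM there. As a share of the mean over the 3 DU145-lineage libraries, their TaxR levels had a median of 1.17%, with quartiles of 0.711% and 1.62% and a range of 0.362% to 4.78%. The inflammation-related phospholipid-binding protein gene ANXA1 went from a listed 0 to 3.16 FPKM in TaxR, stood at 0.0893 in CabR, against 143 to 279 in the DU145 lineage. CAV1, the caveolar coat protein caveolin-1, went from 0.0341 to 1.59 FPKM, with 0.0270 in CabR and 52.1 to 87.8 in the DU145 lineage. ECHDC1, an enzyme that clears a by-product of fatty acid synthesis, was listed at 0 in C4-2B and CabR and had 1.26 FPKM in TaxR.

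The pseudogene RPL31P11 (1.38 FPKM in TaxR) was the remaining member at 1 FPKM or more. SYNE1, UCP2, EDIL3, IL18, SGCE and NKX2-1 followed at 0.833 to 0.497 FPKM. The mirror-image sets were small. RGS20 alone made up both the set under 0.1 FPKM in C4-2B and TaxR and that under 0.1 in TaxR and CabR. It is high in the DU145 lineage, and its share was 0.338% in CabR and 0.216% in C4-2B. It is also 1 of the 24, with their lowest TaxR share, 0.362%. When only C4-2B had to be under 0.1 FPKM, 40 genes qualified, and their median share was 1.26% in TaxR and 0.170% in CabR, where 7 were listed at 0. Whether this reflects mixed-in DU145-lineage material or expression by TaxR cells was not tested. For several results below that it touches, the levels in the DU145 lineage are given.

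**Figure D1:**
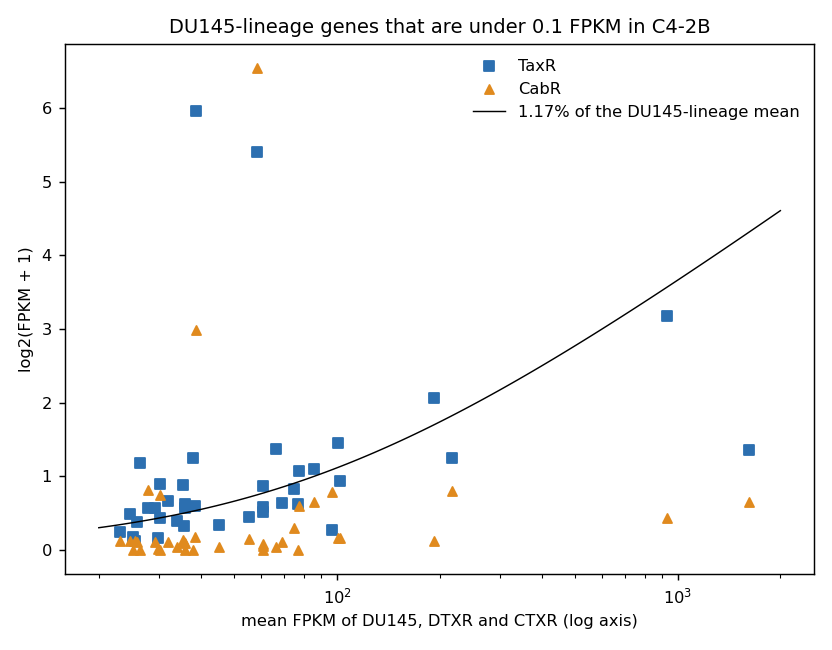
Each marker is 1 gene that is under 0.1 FPKM in C4-2B and at 20 FPKM or more in DU145, DTXR and CTXR, plotted as its level in TaxR (squares) or CabR (triangles), log2(FPKM + 1), against its mean FPKM over the 3 DU145-lineage libraries on a log axis, and the line is 1.17% of that mean. Most squares lie near the line and above the triangles, while MT1E, at the far right, lies well below it. The RMRP entry ENSG00000269900 (61.0 FPKM in TaxR) and ENSG00000262526 (41.1 in TaxR and 92.0 in CabR) lie far above it. Another entry of RMRP, ENSG00000277027, was lower in TaxR than in C4-2B.

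Of the 14442 genes, 439 were higher in TaxR (3.04%) and 983 were lower (6.81%), and the median over all of them was -0.04. Lower genes thus outnumbered higher ones 2.24 to 1. Among protein-coding genes 252 were higher and 551 lower. The share of calls was largest at low levels. Where the larger of both values was 1 to under 5 FPKM, 5.84% of 4091 genes were higher and 10.2% lower, against 1.91% and 4.96% of the 1049 genes at 100 FPKM or more. In C4-2B 121 of the higher genes were listed at 0, and in TaxR 168 of the lower ones were. The threshold falls in a continuum, with 303 genes between 1 and 1.1 in size and 349 between 0.9 and 1. MST1R (0.123 and 1.25 FPKM in C4-2B and TaxR) lay just inside it and MLXIPL (1.66 and 4.32) just outside, as did TES (32.1 and 15.5) and BMF (3.69 and 1.35) on the lower side. In the DU145 lineage MST1R was at 4.08 to 13.3 FPKM.

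**Figure D2:**
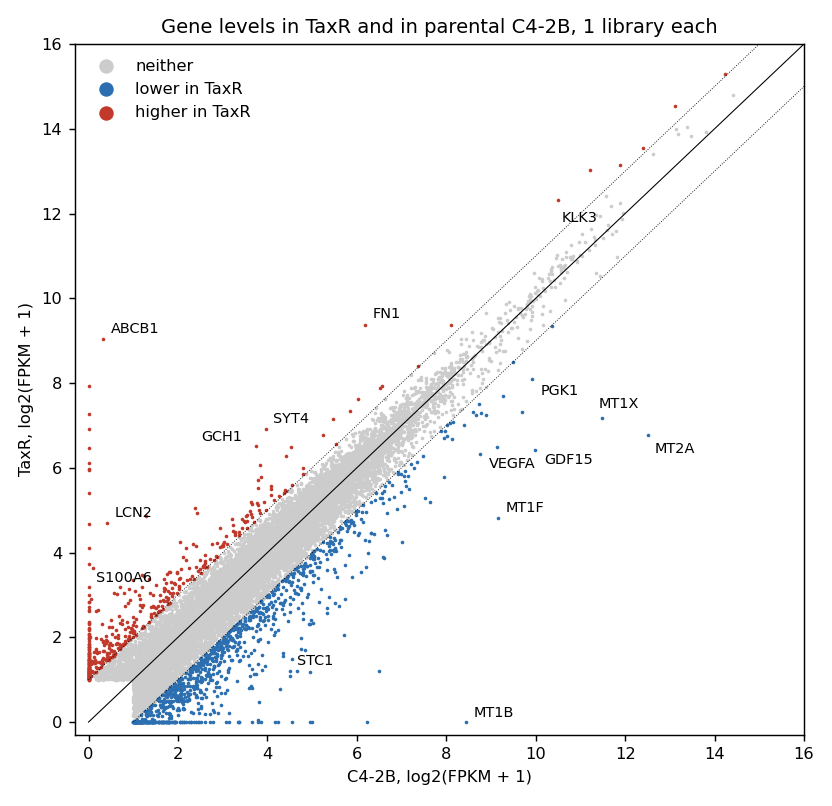
Level of each measured gene in TaxR (vertical) against C4-2B (horizontal), both as log2(FPKM + 1), with the diagonal and the size rule of 1 (dotted). Genes higher in TaxR (red) and lower in TaxR (blue) flank the diagonal, ABCB1 and FN1 standing far above it and MT2A, MT1X and MT1B far below.

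ABCB1 was the most raised gene of the comparison (ENSG00000085563, chromosome 7, 87503633 to 87713323, minus strand, GRCh38). C4-2B had 0.259 FPKM and TaxR 526, a log2 ratio of 8.71 and a 2028-fold difference in FPKM, and CabR had 936. The 3 DU145-lineage libraries held 0.304, 68.0 and 94.2 FPKM (DU145, DTXR, CTXR), and the median share above of their mean is 0.632 FPKM. Other efflux pumps did not follow. Of 7 measured members of a list of ABC transporters only ABCB1 was higher. ABCC4, an exporter of cyclic nucleotides and prostaglandins, fell from 71.9 to 18.7 FPKM (27.4 in CabR), and ABCC1, the multidrug resistance protein MRP1, was at 69.7 and 35.2 FPKM, just short of the size rule. ABCG2, the breast cancer resistance protein, was at 1.10 and 0.671 FPKM. The list median was -0.33.

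Genes around ABCB1 stayed close to their parental level. Of 11 measured neighbours on chromosome 7, RUNDC3B alone passed the rule, rising from 0.0679 to 11.4 FPKM (20.4 in CabR), and the list median was 0.08, or -0.08 with both libraries at an equal total. RUNDC3B (87627548 to 87832296, plus strand) lies partly within ABCB1 and runs in the opposite direction, and it is not stated whether counting used strand, so its reads and those of ABCB1 may not have been separated. SRI, which encodes the calcium-binding protein sorcin, was at 20.5 and 23.5 FPKM in C4-2B and TaxR, and DBF4, a replication kinase subunit, at 14.3 and 18. Of 6 measured uptake carriers of the SLCO and SLC22 families none passed the rule, with a median of -0.57, and SLC22A18 was at 72.9 and 39.0 FPKM.

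The drug target itself showed small differences. Among 16 measured tubulin genes none was higher, TUBE1 (epsilon-tubulin, a centriole protein) was lower at 14.6 and 5.19 FPKM in C4-2B and TaxR, and the median was 0.21. The most abundant beta-tubulin, TUBB, was at 589 and 743 FPKM, and TUBB4B at 349 and 522. TUBB3, the neuronal isotype often studied in taxane resistance, was at 22.1 and 10.9 FPKM, a log2 ratio of -0.96. Of 22 measured microtubule-associated proteins only MAP1B was past the rule, and it was lower (30.0 and 12.2 FPKM). STMN1, the microtubule-destabilising stathmin, was at 100.5 and 64.5 FPKM, and MAP4 at 49.5 and 55.0. The tubulin and microtubule-associated lists together held 2 lower genes and no higher one.

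Metallothionein genes were among those with the lowest ratios. Their promoters are known to hold copies of the metal response element, the site bound by MTF1, so the 250 bases before the RefSeq start of 3 of them are printed here, plus strand, RefSeq on GRCh38.p14. Capitals mark matches on either strand to the element's core, TGCGCNC or TGCACNC. The windows are chr16:56608334-56608583 for MT2A, chr16:56682220-56682469 for MT1X and chr16:56669564-56669813 for MT1H.
MT2A: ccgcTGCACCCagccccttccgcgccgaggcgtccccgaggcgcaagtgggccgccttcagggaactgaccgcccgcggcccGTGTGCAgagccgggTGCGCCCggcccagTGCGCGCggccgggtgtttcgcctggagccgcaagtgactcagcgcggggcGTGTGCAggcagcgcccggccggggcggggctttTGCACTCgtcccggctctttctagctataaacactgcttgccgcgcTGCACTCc
MT1X: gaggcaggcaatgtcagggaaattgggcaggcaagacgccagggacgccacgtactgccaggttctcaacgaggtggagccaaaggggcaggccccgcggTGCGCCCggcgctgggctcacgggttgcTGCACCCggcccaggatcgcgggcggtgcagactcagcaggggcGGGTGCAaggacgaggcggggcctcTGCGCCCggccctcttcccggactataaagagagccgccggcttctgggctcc
MT1H: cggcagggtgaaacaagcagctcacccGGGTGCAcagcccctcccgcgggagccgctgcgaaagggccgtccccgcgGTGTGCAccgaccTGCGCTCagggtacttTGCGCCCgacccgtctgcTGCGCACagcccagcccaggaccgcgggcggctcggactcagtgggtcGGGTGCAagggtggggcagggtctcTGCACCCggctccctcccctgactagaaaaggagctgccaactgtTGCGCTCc
MT2A had 7 such matches, MT1X 4 and MT1H 8. The core is short and common: 24.8% of all 35116 RefSeq windows of this length held at least 1 match, as did 31.9% of those of measured genes and 5 of the 8 windows of the metallothionein and zinc list. A match describes letters, not binding.

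MT2A (ENSG00000125148, chromosome 16, 56608199 to 56609497) was the most abundant gene of the list and fell from 5793 FPKM in C4-2B to 109 in TaxR, with 338 in CabR. That is a 53-fold difference and a log2 ratio of -5.72. MT1X had 2881 FPKM in C4-2B and 143 in TaxR, a log2 ratio of -4.33, and MT1F had 572 and 27.3. The decline in MT1B was larger still, from 347 FPKM to a listed 0 (log2 ratio -8.44). MT1G fell from 89.8 to 1.31 FPKM, and MT1H from 5.52 to a listed 0. In CabR, MT1X was at 142 FPKM, MT1F at 64.8, MT1G at 10.5, MT1B at 2.46 and MT1H at a listed 0. All 6 were therefore lower in CabR than in C4-2B as well, in a comparison that shares the C4-2B library.

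MT2A and MT1X are abundant in the DU145 lineage too, with 3406 to 4383 and 1682 to 2715 FPKM. If 1.17% of the DU145-lineage mean is taken off TaxR, MT2A is left with 62.8 FPKM and a log2 ratio of -6.51, and MT1X with 118 and -4.60. MT1E went the other way. It went from a listed 0 to 1.55 FPKM, with 0.577 in CabR and 1726 in DU145, so its TaxR level was 0.0958% of the DU145-lineage mean. This share is far below the 0.362% to 4.78% of the 24 genes above. These genes are close paralogs, and how the authors' software divided reads among them is uncertain.

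Zinc transporters moved less. SLC30A1, a zinc exporter that MTF1 also controls, fell from 34.3 to 13.5 FPKM, and the importer SLC39A10 from 23.2 to 10.5. The mRNA of MTF1 was at 5.81 and 6.22 FPKM. In all, 8 of 11 measured members of the list were lower and 1 was higher, with a median of -2.71. That median depended on how low values were treated. It was -4.34 with a pseudocount of 0.1 FPKM and -1.08 with 5, -4.33 over genes at 5 FPKM or more and -1.28 with no filter, and -3.56 after removal of the DU145-lineage share. MT1B, MT1F, MT1G, MT1H and MT1X lie within chromosome 16, 56651899 to 56684196, and were the only run of 5 or more adjacent measured coding genes called in the same direction anywhere in the genome. The next longest run, PGLYRP2, CYP4F8, CYP4F11 and TPM4 on chromosome 19 (15468645 to 16103005), held 4 lower genes.

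**Figure D3:**
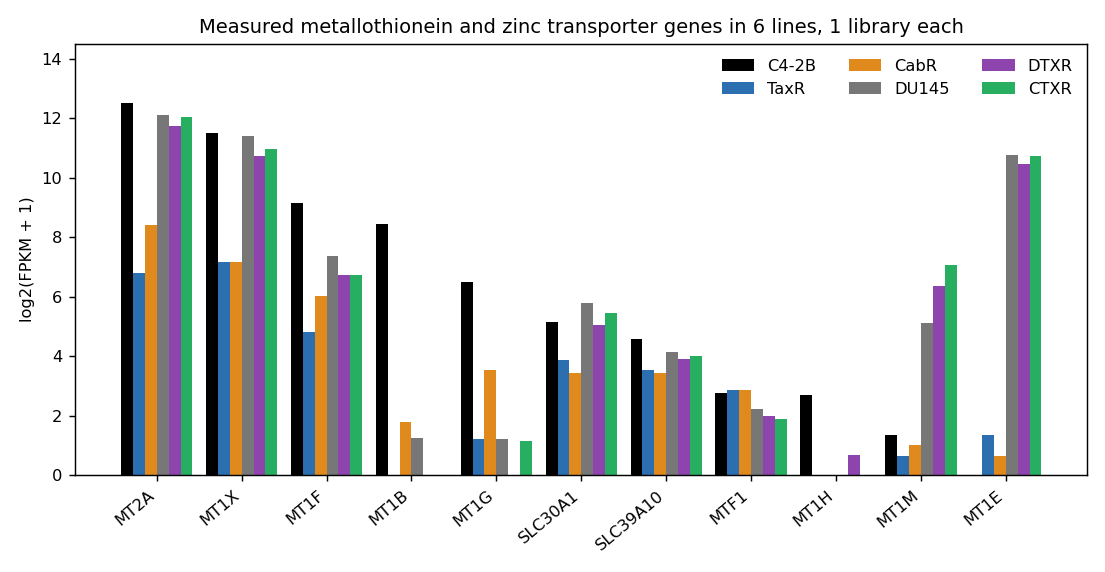
Level of each measured metallothionein and zinc gene in the 6 lines, as log2(FPKM + 1), with 1 bar per library and no bar where the gene is listed at 0. MT2A, MT1X and MT1F are high in C4-2B and in the DU145 lineage and lower in TaxR and CabR, and MT1E is high only in the DU145 lineage.

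Targets of the hypoxia-inducible factors were lower almost throughout. Of 23 measured members 21 were lower and none higher, with a median of -2.05 and all 23 ratios below 0, from -3.29 to -0.12. The hypoxia response element that these factors bind has the core ACGTGC. To show where it lies in genes that moved, 100-base stretches of the 250 bases before the RefSeq start are given for PGK1, ANKRD37 and DDIT4, and 138 bases for LDHA, all plus strand on GRCh38.p14. Capitals mark the core on either strand.
PGK1: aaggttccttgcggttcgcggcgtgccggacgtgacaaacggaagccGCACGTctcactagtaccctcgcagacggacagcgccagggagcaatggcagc
ANKRD37: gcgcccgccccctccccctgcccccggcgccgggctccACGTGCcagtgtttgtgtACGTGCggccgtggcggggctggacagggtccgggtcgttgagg
DDIT4: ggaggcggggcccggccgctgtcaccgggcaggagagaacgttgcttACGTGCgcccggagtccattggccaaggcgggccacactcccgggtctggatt
LDHA: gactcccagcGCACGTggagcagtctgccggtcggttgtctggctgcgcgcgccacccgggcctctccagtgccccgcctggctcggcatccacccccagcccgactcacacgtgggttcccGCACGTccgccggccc
These are chrX:78104017-78104116, chr4:185396642-185396741, chr10:72273752-72273851 and chr11:18394367-18394504. The core was found in 5.83% of all windows, in 7.47% of those of measured genes, in 10.0% of those of lower genes and in 7.21% of those of higher genes. In the hypoxia list 6 of 24 windows held it, and in the glycolysis list 8 of 43. Genes can have several windows, and no match in 250 bases says nothing of sites elsewhere.

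VEGFA, the main angiogenic growth factor, fell from 431 FPKM in C4-2B to 79.6 in TaxR, with 43.2 in CabR. NDRG1, a stress-responsive gene that androgen also induces, fell from 561 to 89.1 (57.3 in CabR). DDIT4, an inhibitor of mTOR signalling, fell from 823 to 159 (147 in CabR). The genes with the largest ratios were less abundant. STC1, a secreted glycoprotein hormone, went from 21.6 to 1.32 FPKM, LOX, which cross-links collagen, from 27.5 to 2.24, and PFKFB4, a regulator of glycolytic flux, from 97.2 to 13.7. EGLN3, an oxygen-sensing prolyl hydroxylase, fell from 26.7 to 4.39 FPKM, and CA9, a carbonic anhydrase used as a hypoxia marker, from 4.76 to 1.10. Only SLC2A3 (3.94 and 1.54 FPKM) and CA12 (8.25 and 7.54) were not past the rule. ADM and ANGPTL4 were among the members under 1 FPKM in both libraries, which were not measured.

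Values of 2 regulators were looked up after the list had been seen. HIF1A was at 34.2 FPKM in C4-2B and 41.3 in TaxR, and VHL, whose product marks HIF proteins for degradation, at 49.8 and 47.2. In DTXR against DU145, which share no library with this comparison, the median of the hypoxia list was -0.17.

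Glycolysis genes were lower in part. Of 18 measured members 7 were lower and none higher, all 18 ratios were below 0, and the median was -0.90. PGK1, a kinase that yields ATP, fell from 967 to 273 FPKM, with 260.4 in CabR. Lactate dehydrogenase A, LDHA, fell from 1326 to 652, and SLC16A3, the lactate exporter MCT4, from 619.8 to 205. PDK1 went from 49.1 to 16.5. ENO2, the neuronal enolase, fell furthest, from 67.3 to 10.7 FPKM. The most abundant enzymes stopped short of the rule but were among the genes with the largest loss in FPKM: GAPDH was at 3611 and 2006 FPKM, ALDOA at 2760.5 and 1477, and ENO1 at 1606 and 998. CKB, brain-type creatine kinase, was likewise at 2602 and 1537.

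**Figure D4:**
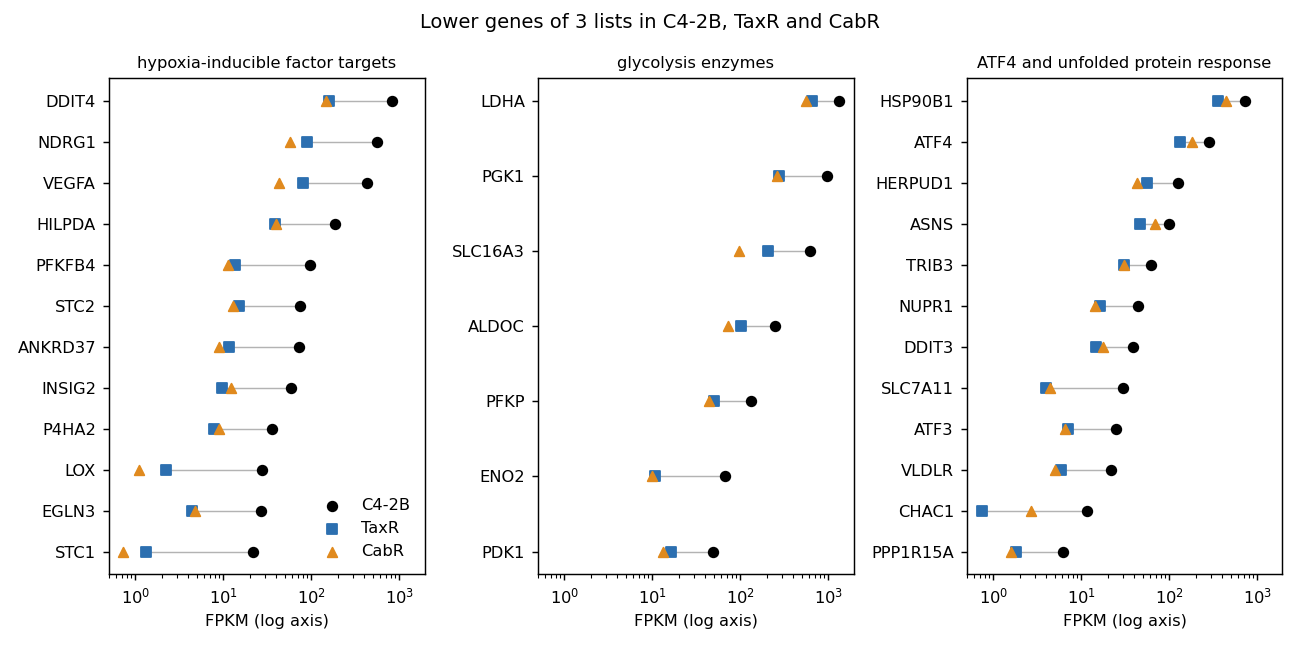
FPKM (log axis) in C4-2B (circles), TaxR (squares) and CabR (triangles) of lower genes of 3 lists, for the hypoxia list the 12 with the largest ratios, for glycolysis all 7 and for the ATF4 list the 12 that are not listed at 0. In every gene drawn TaxR lies to the left of C4-2B, and CabR lies close to TaxR for most.

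Genes of the ATF4 pathway and the unfolded protein response were the other broad decline. Of 28 members 13 were lower and 1 was higher, 27 ratios were below 0 and the median was -0.85. ATF4 itself fell from 285 FPKM in C4-2B to 133 in TaxR (182 in CabR). Its targets CHAC1, which degrades glutathione, and SLC7A11, the cystine importer, fell furthest, from 11.5 to 0.743 FPKM and from 29.7 to 3.99. DDIT3, the stress-induced factor CHOP, fell from 38.7 to 14.6, TRIB3 from 62.4 to 30.4, and asparagine synthetase ASNS from 98.5 to 46.2. VLDLR, a lipoprotein receptor, and ATF3, a stress-induced repressor, fell from 21.6 to 5.93 and from 24.5 to 7.07. Serine synthesis genes of the list stayed nearer, PHGDH at 247 and 196 FPKM and PSAT1 at 129 and 91.8. ATF5, a relative of ATF4, was the higher gene, at 19.9 and 43.3 FPKM.

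The amino acid response element, through which ATF4 acts with partner proteins, has the core TGATGCAA. It is shown for CHAC1 in 100 bases at chr15:40953221-40953320, plus strand, with the core, here on the opposite strand, in capitals.
CHAC1: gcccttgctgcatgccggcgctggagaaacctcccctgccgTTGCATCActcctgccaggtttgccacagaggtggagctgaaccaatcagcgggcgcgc
Of all windows 0.772% held this core, and of the 36 windows of the list 3 did, those of CHAC1, FGF21 and HERPUD1. FGF21, a stress hormone, fell from 2.13 FPKM to a listed 0, and HERPUD1, an endoplasmic reticulum protein, from 125 to 56.5.

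Other stress and growth-signal genes were lower in part. GDF15, a stress cytokine on the p53 list, fell from 1016 to 84.7 FPKM, with 57.2 in CabR. It stood apart from its list: 4 of 22 p53 targets were lower (GDF15, BBC3, GADD45A and DDB2), none was higher, and the median was 0.06, or -0.09 at an equal total. CDKN1A, which encodes the cell cycle inhibitor p21, was at 39.5 and 50.9 FPKM, and MDM2 at 38.6 and 38.6. GADD45B, a stress-inducible relative of GADD45A, fell from 52.1 to 6.52 FPKM. HMOX1, the inducible haem oxygenase, fell from 47.8 to 5.69 and was the only lower gene among 19 measured NRF2 and glutathione genes, whose median was -0.19. NQO1, a standard NRF2 target, was at 184 and 127 FPKM. Ferritin heavy chain, FTH1, was at 2616 and 4012 FPKM and did not pass the rule. It had the largest gain in FPKM among nuclear protein-coding genes with a gene symbol.

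Of 16 measured immediate early genes 6 were lower and none was higher, with a median of -0.66. EGR1 fell from 5.96 to 0.182 FPKM, FOS from 7.56 to 0.678 and FOSB from 2.11 to 0.109. JUND and NR4A1 were also lower, whereas MYC was at 70.0 and 95.4 FPKM. Among ERBB and MET receptors and ligands EGF fell from 9.52 to 1.75 and EGFR from 67.2 to 26.6 FPKM, 2 of 8 measured, with a median of -0.55. INSIG1, a sterol-regulated brake on cholesterol synthesis, fell from 471 to 152 FPKM, but the 22 cholesterol and fatty acid genes had a median of -0.04 and no other member past the rule.

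FN1, fibronectin (ENSG00000115414, chromosome 2, 215360440 to 215436172), rose from 71.7 to 662 FPKM and stood at 854 in CabR, a log2 ratio of 3.19. It was the largest gain in FPKM among nuclear protein-coding genes with a gene symbol that were past the rule. The 16 other measured matrix and integrin genes were not past it, and the median of the list was -0.30. Collagen COL6A1 was at 55.7 and 92.5 FPKM, and integrin ITGB1 at 144 and 112. LCN2, lipocalin-2, an iron-siderophore binding protein, rose from 0.337 to 25.1 FPKM (4.66 in CabR, at most 0.154 in the DU145 lineage).

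SYT4, a synaptotagmin of secretory vesicles, rose from 14.6 to 121 FPKM, and GCH1, which starts the synthesis of tetrahydrobiopterin, from 12.3 to 89.7. Both stayed raised in CabR, at 94.4 and 66.6. The other 8 genes of the tetrahydrobiopterin list were not past the rule, although SPR, the last enzyme of the pathway, was at 25.8 and 48.6 FPKM, and the feedback regulator GCHFR at 90.8 and 46.4. PRSS1, trypsin-1, rose from 4.23 to 32.3, a value that near-identical trypsinogen copies make uncertain. EXOC6, a subunit of the exocyst, rose from 4.37 to 29.3 and was at 5.73 in CabR.

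HOXD13, a homeobox factor, was listed at 0 in C4-2B and reached 7.0 FPKM in TaxR, with 2.52 in CabR. CR1, a complement receptor, was likewise listed at 0 and had 5.30 and 4.24. CBLN2, a secreted synaptic organiser, rose from 0.884 to 7.86, and TNFRSF14, a receptor of the tumour necrosis factor family, from 3.10 to 17.9. SPAG16, a sperm flagellum protein, rose from 0.124 to 5.15 FPKM, and NECTIN3, an adhesion molecule, from 0.625 to 8.06. WLS, which escorts WNT proteins to the cell surface, rose from 0.555 to 7.13 FPKM, with 20.1 to 41.1 in the DU145 lineage. The histone genes H4C12 (listed at 0 in C4-2B, 5.61 FPKM in TaxR) and H4C11 (0.745 and 7.30) belong to a family of near-identical copies.

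Of the 20 highest coding genes with a gene symbol 2 lost their call when the DU145-lineage share was taken off TaxR. S100A6, a calcium-binding protein, went from a listed 0 to 8.06 FPKM, with 0.353 in CabR and 762 to 1217 in the DU145 lineage, so its TaxR level was 0.868% of that mean. UCHL1, a neuronal ubiquitin hydrolase, had 0.490 and 7.19 FPKM, and 535 to 740.2 in the DU145 lineage. With 1.17% of the DU145-lineage mean taken off TaxR, 30 of the 439 higher genes (6.83%), these included, lost their call and 409 remained, while 57 more genes became lower. ABCB1, FN1, LCN2, SYT4, GCH1, RUNDC3B and the other 12 of the 20 remained past the rule. MST1R, outside the 20, lost its call at a log2 ratio of 0.93. Some lower genes changed too but stayed past the rule. EGR1 was left with 0.0042 FPKM, CHAC1 with 0.424, CHMP4A with 0.480, HMOX1 with 4.32 and SLC7A11 with 3.03. Of 14 measured DU145-side markers 8 were higher and 2 lower (EGFR and GPX8), with a median of 1.24, or -0.16 with the share removed. The share was set on genes of this kind, ANXA1 and CAV1 of this list included. The lower median therefore follows in part from how the share was chosen. AXL, a receptor kinase, went from 0.0533 FPKM to 1.73 in TaxR, was at 0.120 in CabR and at 63.1 to 138 in the DU145 lineage. Vimentin, VIM, was at 61.0 and 60.8 FPKM in C4-2B and TaxR.

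Mesenchymal and neuronal lists held some of the same genes. Of 7 measured mesenchymal genes AXL and CAV1 were higher and LOX, which is also a hypoxia target, was lower, with a median of -0.00. With the DU145-lineage share taken off TaxR that median was -0.64, and AXL (0.56) and CAV1 (0.81) were no longer past the rule. Of 9 measured neuroendocrine and neuronal secretory genes SYT4, UCHL1 and CBLN2 were higher and ENO2 and VGF lower, with a median of 0.29. CHGA, SNAP25 and INSM1, common neuroendocrine markers, were at or under 0.0460 FPKM in both libraries. KRT7 (0.111 and 1.62 FPKM, 30.1 to 490.4 in the DU145 lineage) was the only higher gene of 24 measured epithelial genes, and KRT19, DSP and CLDN4 were lower. E-cadherin, CDH1, was at 214 and 183 FPKM. The list median was -0.16.

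Most androgen-responsive genes stayed within the size rule. Of 25 measured genes of that list 4 were lower, none was higher, and the median was -0.16. KLK3, which encodes prostate-specific antigen, was at 3567 FPKM in C4-2B and 3053 in TaxR, and FKBP5 at 160 and 144. SLC45A3, a prostate-enriched membrane protein, fell from 155 to 63.2 (15.3 in CabR), ZBTB16 from 48.6 to 23.4, and TMEFF2 from 1.41 to a listed 0. NDRG1, the remaining lower gene, is also on the hypoxia list. Of 12 measured androgen-metabolising enzymes 4 were lower: UGT2B11 (11.1 and 1.53 FPKM) and UGT2B28 (7.35 and 1.01), which glucuronidate steroids, CYP11A1 (5.54 and 1.17), which starts steroid synthesis, and HSD17B6 (3.43 and 1.08). UGT2B genes are close paralogs, and reads may have been divided among them.

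Of 13 mitochondrially encoded mRNAs 5 were higher. All 13 had ratios above 0, and the median was 0.85, or 0.70 with both libraries at an equal total. MT-ND2 rose from 2368 to 8296 FPKM, MT-ND3 from 8872 to 23673, MT-ND1 from 3755 to 9050.5 and MT-CYB from 5369.6 to 11952, while MT-CO1 was at 14443 and 15567. Of 27 nuclear genes of the same respiratory chain none was past the rule, and the median was 0.01, or -0.15 at an equal total, with COX7C at 817 and 867 FPKM. None of 26 ribosomal protein genes was past it either, with a median of 0.14 (-0.02 at an equal total), although RPS27 (3282 and 4623 FPKM), RPS29 (2096 and 2921), RPL4 (1419 and 2063) and RPL31 (998 and 1536) were among the largest gains in FPKM. Scaling both libraries to an equal total moved the median over all genes from -0.04 to -0.18, and 342 genes were then higher and 1271 lower.

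Proliferation genes stayed within the size rule, though most ratios were below 0. None of 28 was past the rule, 23 ratios were below 0 and 5 above, and the median was -0.28. CDK1 was at 281 and 240.0 FPKM in C4-2B and TaxR, the centromere protein CENPF at 25.4 and 12.9, and the replication helicase subunit MCM5 at 39.5 and 61.3. In CabR, CENPF was at 27.5 FPKM and CDK1 at 382. Of 13 measured G1 genes the inhibitors CDKN1C (31.6 and 10.2 FPKM) and CDKN1B, or p27 (60.2 and 24.0), were lower, and cyclin D1, CCND1, was at 86.7 and 138. Among 13 measured BCL2 family genes only BBC3, or PUMA, was past the rule, lower at 9.03 and 2.25 FPKM, and BCL2L1 (56.3 and 53.2) and MCL1 (53.7 and 55.0) were level.

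BST2, the interferon-induced virus tether, fell from 21.8 to 1.13 FPKM, and no other of 15 measured interferon-stimulated genes was past the rule (median -0.01). ISG15 was at 66.5 and 107 FPKM. Of 13 measured MHC class I genes 1 was lower and none higher, with a list median of -0.34 and B2M at 289 and 203 FPKM. Of 17 listed heat shock genes none was past the rule (median 0.12, or -0.04 at an equal total), HSPB1 being at 1139 and 897. HSPA6, an inducible heat shock gene that is not on the list and was named after its values were seen, fell from 6.80 to 0.619 FPKM, and was at 8.41 in DU145 and 0.383 in DTXR. DKK1, a secreted WNT antagonist, was the only higher gene of 13 measured WNT genes, listed at 0 in C4-2B with 1.39 FPKM in TaxR and 127 to 383 in the DU145 lineage. Among 12 measured histones H2BC4 was higher (18.2 and 39.2 FPKM) and 1 gene was lower, with a list median of -0.30. That list does not cover the family: H4C12 and H4C11, both higher, and H2AC15, which fell from 6.98 to 2.81 FPKM, are not on it. None of 4 measured genes on the list of inflammatory chemokines and interleukins was past the rule. NFKBIA, which is on that list but is neither a chemokine nor an interleukin, was at 74.0 and 51.7 FPKM.

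**Figure D5:**
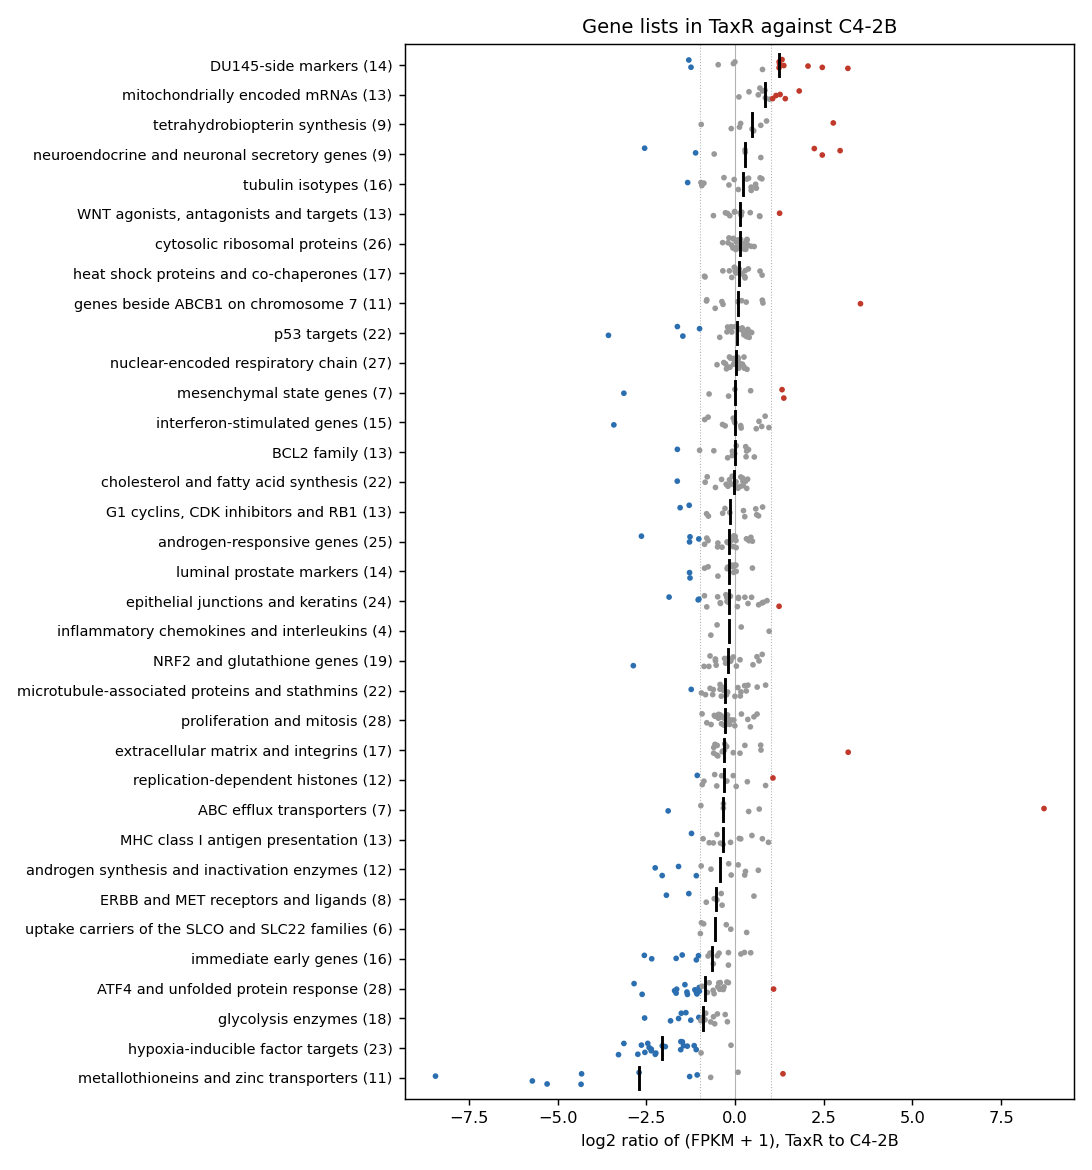
Log2 ratio of (FPKM + 1), TaxR to C4-2B, of each measured member of the gene lists (points, blue lower, red higher, grey neither) with the list median (bar), measured members in brackets and the size rule dotted; the fibroblast, blood and endothelial lists, with 1 or 2 measured members, are not drawn. Metallothionein, hypoxia, glycolysis and ATF4 lists lie farthest to the left, and ABCB1 is the point farthest to the right.

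Several of the steepest declines were in genes on none of these lists, which do not hold every gene of their programmes. MAB21L4 fell from 51.4 to 3.19 FPKM, with 0.746 in CabR. DHRS2, a short-chain dehydrogenase, fell from 24.4 to 1.31, SAMD12 from 13.0 to 0.392, and CHMP4A, a subunit of the membrane-cutting ESCRT complex, from 11.1 to 0.741. PIP, prolactin-induced protein, a gene of secretory epithelia, fell from 9.33 to a listed 0. GUCY1A1, a subunit of the nitric oxide receptor, fell from 26.0 to 2.32 FPKM, and MAF, a basic leucine zipper factor, from 11.3 to 0.814. CYP4F8, a fatty acid hydroxylase, fell from 22.6 to 1.80 and differed between the resistant lines, with 17.9 FPKM in CabR.

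By position, coding genes on chromosome 2 had the highest median of the autosomes and X, 0.11 over 761 genes. There 4.60% were higher and 4.20% lower, against 2.13% and 4.66% of all measured coding genes. The medians of the other autosomes and X lay between -0.08 and 0.03. FN1, HOXD13 and SPAG16 are on chromosome 2. DNA copy number was not measured.

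The docetaxel-resistant line of the other lineage, DTXR, was set against its own parent DU145 over the 12660 genes measured in both comparisons. There 525 genes were higher (4.15%) and 531 lower (4.19%) in DTXR. Of the 261 genes higher in TaxR, 33 (12.6%) were also higher in DTXR, which is 6.29% of the DTXR list, but 34 (13.0%) were lower there. Of the 646 lower in TaxR, 89 (13.8%) were lower in DTXR, 16.8% of that list, and 53 (8.20%) were higher. Higher in both were ABCB1, RUNDC3B and TNFRSF14 (0.723 FPKM in DU145 and 12.9 in DTXR). Lower in both were NDRG1 (25.7 and 9.61), KRT19 (60.8 and 13.9), CDKN1C (7.67 and 1.42) and MT1G (1.31 and a listed 0). ENO2 and SLC16A3 were lower in TaxR and higher in DTXR.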

How the data were processed

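Messenger RNA of 6 cell lines was measured with 1 library each, and groups came from the sample labels. Per the labels' protocols, RNA was isolated with TRIzol and a kit for stranded mRNA libraries was used. HISAT, StringTie, Cuffnorm and GRCh38 appear in the submitters' processing notes. Not given in the sources used here are the gene annotation, whether strand was used in counting and whether all libraries were scaled in 1 run. As values the authors deposited FPKM per Ensembl identifier, per the file headers; these are estimates, an exact 0 can be a failed estimate, and no count model was fitted. Depth is unknown, so no counting interval is given.

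Of 60658 identifiers 56550 were matched to a symbol table and 57047 to GENCODE release 29. Ratios used a pseudocount of 1 FPKM over genes at 1 FPKM or more in either library. Members, the 38 gene lists and the rule for named genes were chosen with earlier results of these data known. The rule takes ABCB1 and, of coding genes with a gene symbol, the 20 highest and 20 lowest ratios. Of the same coding genes outside the mitochondrial ones it takes the 10 largest gains and losses in FPKM. It also takes up to 4 called members per list (or its most abundant one) and the 10 highest genes of the DU145-lineage check. Other genes were named after their values were seen. A few genes that the rule takes are left out and not reported here. Motifs were searched on both strands of the 250 bases before each RefSeq start (GRCh38.p14), each motif on its own, counting overlapping matches. Alternatives were other pseudocounts, filters, scalings, coding genes only and removal of the DU145-lineage share; a gene class without the CabR condition and counts without the genes that removal affects were added after seeing the data. The code was tested on simulated data. Python 3.11.15, numpy 2.4.6, pandas 2.3.3 and matplotlib 3.10.9 were used.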

Additional observations from a re-analysis of the deposited data

Results flagged for a closer look

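Some named genes passed the size rule in opposite directions in the docetaxel-resistant lines of both lineages, each set against its own parent. With 1 library per line the difference was not tested. ENO2, neuronal enolase, had a log2 ratio of -2.55 in TaxR and 1.67 in DTXR, and the lactate exporter SLC16A3 had -1.59 and 1.12. The lipoprotein receptor VLDLR had -1.71 and 1.11, SAMD12 had -3.33 and 1.17, and the lysosomal protein gene CD68 had -1.18 and 3.05. Higher in TaxR and lower in DTXR were the histone genes H4C12 (2.72 and -1.28) and H2BC4 (1.07 and -3.57) and the WNT antagonist DKK1 (1.25 and -1.58). DKK1 was listed at 0 in C4-2B with 1.39 FPKM in TaxR, against 127 to 383 in the DU145 lineage. With the DU145-lineage share removed, its TaxR level was 0 and its call was lost.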

How the results depend on the processing

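Counts depended on how low values were treated. With a pseudocount of 0.1 FPKM 790 genes were higher and 1544 lower, with 5 FPKM 88 and 263, over genes at 5 FPKM or more 200 and 564, and over coding genes 252 and 551. The ABCB1 ratio was 10.52 with a pseudocount of 0.1 and 6.66 with 5. Genes higher or lower in both TaxR and DTXR numbered 79 and 195 with 0.1, 6 and 13 with 5, and 14 and 39 over genes at 5 FPKM or more, and 43 were lower in both among coding genes. Genes higher in TaxR that are high in all 3 DU145-lineage libraries and under 0.1 FPKM in CabR numbered 5, and 8 with a pseudocount of 0.1, 0 with 5, 0 over genes at 5 FPKM or more and 0 with the DU145-lineage share removed from TaxR. ANXA1, CAV1, RPL31P11 and ECHDC1 of this class helped set the share, so the last count follows in part from that choice. Removing that share turned UCHL1 to -0.56, KRT7 to -0.15 and the DU145-side median to -0.16, and that median was -0.0050 over genes at 5 FPKM or more. Under the 4 rescalings higher counts lay between 342 and 469 and lower counts between 893 and 1271, and 5 of 38 list medians at an equal total (0.08 to -0.08 for the genes beside ABCB1, 0.06 to -0.09 for p53 targets, 0.01 to -0.15 for the nuclear respiratory chain, 0.14 to -0.02 for ribosomal proteins, 0.12 to -0.04 for heat shock genes) and 1 of 115 named genes (COX7C, 0.09 to -0.07) changed sign. Under the other 3, 3 or 4 list medians did, to at most 0.04 in size, and no named gene. The metallothionein median lay above that of the hypoxia list with a pseudocount of 5 (-1.08 and -1.76) and with no filter (-1.28 and -2.0). A pseudocount of 5 ended the call of 20 named genes, the share removal that of 7 without a change of sign. A value with no replicate spread was taken as unmoved within 1.5 times. The median share lay between 0.872% and 1.64% over its alternatives. No paired analysis was possible because each line has 1 library, and for the same reason no replicate could be left out.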

Other observations

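Several noncoding classes were called more often per measured gene than protein-coding genes, in both directions. Lower were 14.7% of antisense genes, 16.7% of long intergenic noncoding genes and 16.6% of processed pseudogenes, against 4.66%. Higher were 5.10%, 7.14% and 12.1% of the same classes, against 2.13%. These differences were not tested, and the classes were not compared at equal FPKM. Over all genes, calls were more frequent at low levels. Of 764 measured antisense genes 112 were lower and 39 higher in TaxR, of 616 long intergenic noncoding genes 103 and 44, and of 289 processed pseudogenes 48 and 35. Reads of antisense genes and pseudogenes can belong to overlapping or near-identical genes, so these values are uncertain.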
